A study of Mus musculus with 6 samples.

Results

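The genes described here encode the enzymes that make, recycle and interconvert nucleotides, with the folate and methionine cycle enzymes that supply single carbons to them. They were taken as a list of 45 mouse genes, and every probe set whose platform gene symbol is a member, alone or among several, was included. The list found 104 probe sets for 42 of the 45 genes, among 15964 genes named on the arrays. Of these, 40 had a probe set of their own above a detection floor in CM and in E/EM cells, the populations defined below, among 10946 such genes in all. No probe set was named for Paics, Impdh2 or Mat2a.

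The study compared 2 kinds of CD8+ T cells grown from spleen and lymph node cells of female P14 mice on the C57Bl/6 background, which carry a transgenic T cell receptor. Both kinds were stimulated with the receptor's cognate peptide for 2 days and then grown for 7 days in a cytokine. Cells grown in IL-15 and sorted for a high level of a surface marker were called central memory (CM), and cells grown in IL-2 and sorted for a low level of it were called effector/effector memory (E/EM). Each kind was hybridised once to each of 3 array types with different probe sets, SubA, SubB and SubC. The labels do not say how many mice were used, whether they were pooled, or whether 1 RNA sample served all 3 array types, and they give no ages. Both populations are cultured cells named after memory subsets, not cells taken from an animal after infection.

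With 1 array per kind of cell and array type there are no replicates, so no p-value was computed and every value describes these arrays. Each ratio sets the CM signal intensity over the E/EM signal of the same array type, on the log2 scale, so values below 0 mark lower signals in CM cells. A gene's value is the mean over its probe sets, with the SD over probe sets, which is not a spread over replicates. The floor, the signal below which a probe set was not taken as measured, was set per array type, at 31.28 (SubA), 88.12 (SubB) and 194.34 (SubC). No level was compared between genes or array types. The median SD over the probe sets of a gene was 0.32 (4094 genes). For 19 control probe sets repeated on all 3 array types, the median SD of the log2 ratio over array types was 0.25 and the largest 0.54. Differences of this size are therefore within the spread between probe sets and between array types. Whether that spread is only technical cannot be told, since 1 RNA sample may not have served all 3 array types. A lower signal from fewer expressing cells cannot be told apart from less RNA per cell.

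The CD8+ identity of both populations was checked on marker genes. Cd8a had signals of 5882.7 in CM and 5133.8 in E/EM cells, and Cd8b1 had 12298.3 and 8709.3. Of the T cell markers, 7 of 8 were measured, with a median log2 ratio of -0.01. The macrophage and neutrophil markers Adgre1, Lyz2 and Itgam lay at or under the floor in both, while 4 other markers of that list were measured, all with ratios below 0 (-1.16 to -0.06). B cell markers were measured for 4 of 6 named genes, with ratios from -0.51 to 0.39. The summed SubA signal was 468.3 and 706.1 over the macrophage and neutrophil list and 619.6 and 607.7 over the B cell list. Of the helper T cell markers, Cd4 had 131.7 and 49.3, a log2 ratio of 1.42, while Zbtb7b was at least 9.74-fold lower in CM cells on SubB and Cd40lg lay under the floor in both. Of the erythroid markers 4 of 5 named genes were measured, from -0.50 to 0.74. Their part in the values below was not tested.

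Purine rings are built step by step on phosphoribosyl pyrophosphate (PRPP), with folate-borne carbons added along the way, and end in IMP, the branch point to AMP and GMP. Pyrimidine rings are built first and joined to PRPP afterwards. Ribonucleotide reductase turns ribonucleotides into the deoxynucleotides of DNA, thymidylate synthase makes dTMP, and salvage enzymes recover bases and nucleosides. T cells that divide after antigen need all of these routes, and several of their genes are known targets of the transcription factor MYC and of the S phase programme.

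No member passed 2-fold as a gene mean, although single probe sets of Adss, Adssl1, Cad and Gmps did. By the 2-fold rule 0 of the 40 measured members were lower in CM cells and 0 higher, against 5.61% and 2.73% of all measured genes. The 1.5-fold rule gave 1 lower and 2 higher members, against 13.9% and 10.1% of all genes. With 40 members these shares amount to few genes, so the counts are no result about the members. Above 0 were 24 members and below 0 were 16, against 49.7% of all genes above 0. The members' median was 0.13, with a range of -0.69 to 0.77, and the median of all genes was -0.0025. Within 0.32 of 0, the median SD over probe sets, lay 22 members (55.0%), against 51.5% of all genes. Counted by single-symbol probe sets, 1 of 72 was past 2-fold lower and 2 were past 2-fold higher, against 5.65% and 3.96% of all probe sets. Past 1.5-fold were 5 lower and 7 higher, against 14.4% and 12.7%, and 40 lay above 0, against 51.3%.

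**Figure D1:**
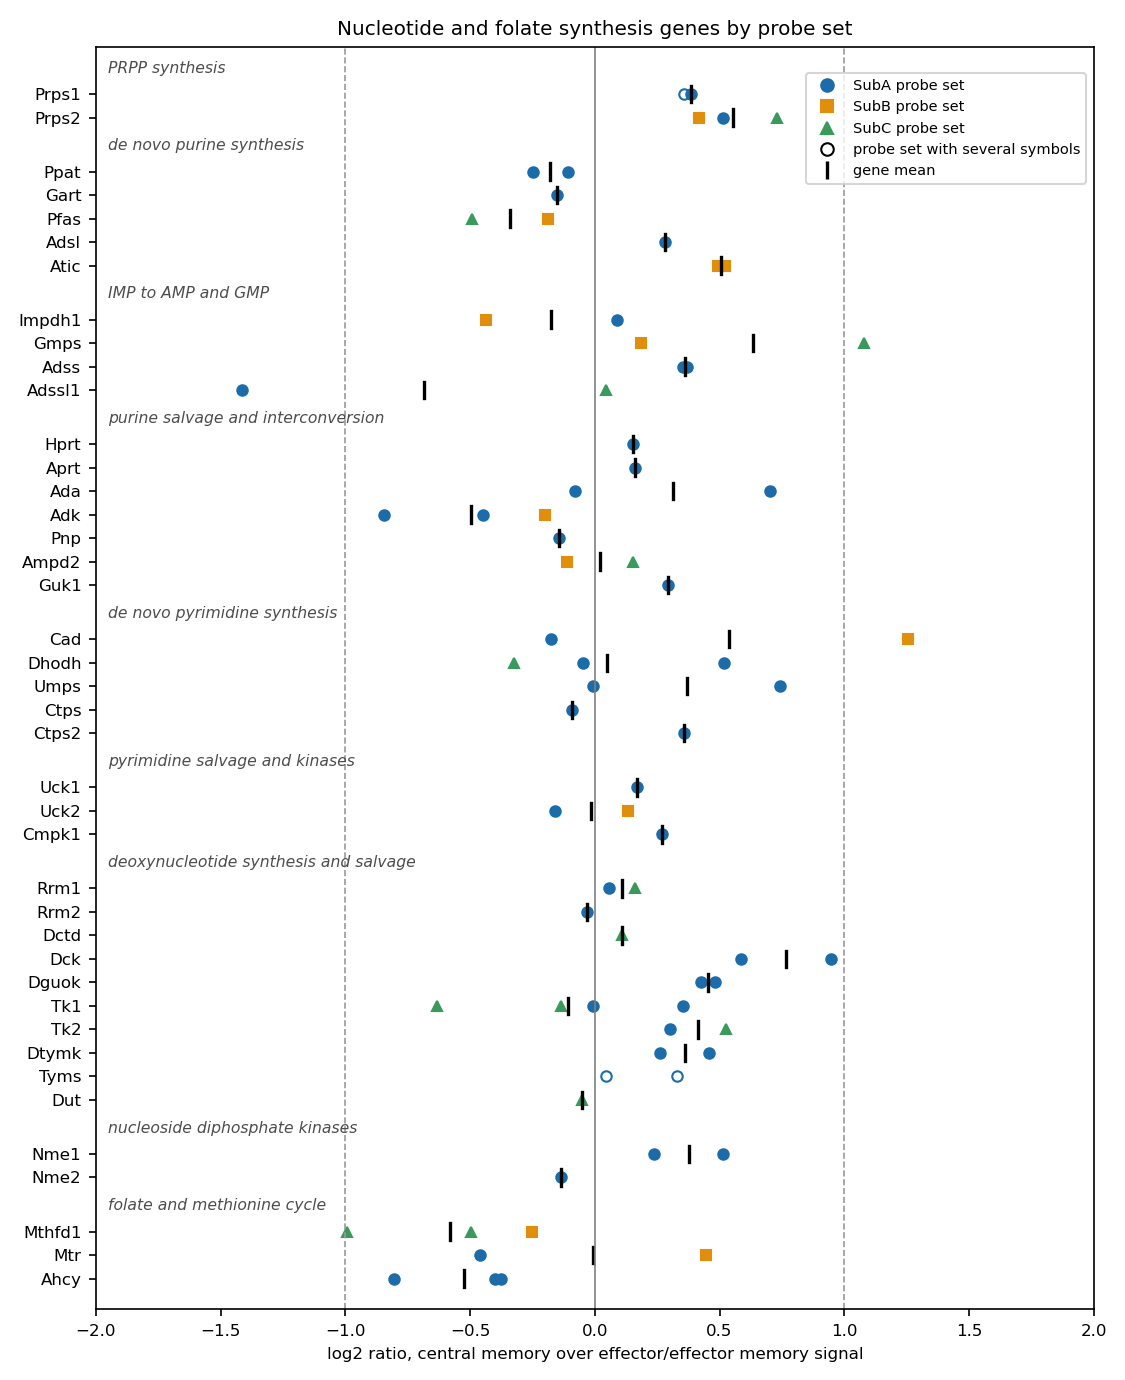
Each point is a member probe set measured in both CM and E/EM cells, placed by its log2 ratio (CM over E/EM) and coloured by array type, with open symbols for probe sets given several gene symbols and a black bar at the gene mean; dashed lines mark 2-fold. No gene mean passes a dashed line, and the probe sets of Cad, Gmps and Adssl1 lie far apart.

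A stricter limit of 5 times the floor in CM and E/EM cells was passed by 37 of the 40 members, against 7069 of 10946 genes. Of these 37 members 0 passed 2-fold in either direction, against 2.45% of those genes lower and 1.85% higher. By the 1.5-fold rule 0 of these 37 were lower and 2 higher, against 7.46% and 8.62%. Their median was 0.06, close to the 0.05 of all such genes, and 21 lay above 0, against 55.8%.

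**Figure D2:**
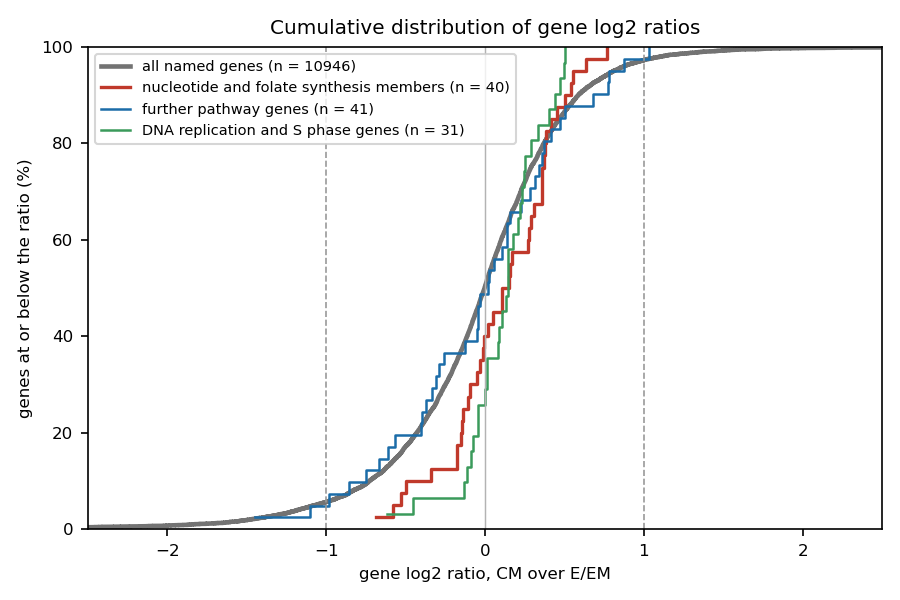
Cumulative share of genes (percent, vertical) at or below each log2 ratio, CM over E/EM (horizontal), for all 10946 measured genes, the 40 members, 41 further genes of the same pathways and 31 DNA replication genes; dashed lines mark 2-fold. The members' curve ends at -0.69 and 0.77, inside both dashed lines.

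The promoter windows of the members were searched for the E-box CACGTG, the core site of MYC and related factors, which reads the same on both strands. RefSeq windows (GRCm38.p6) from 250 bases before to 50 bases after a start were found for 43 members. Of these, 7 genes (16.3%) held the motif in at least 1 window, against 8.09% of all 27025 genes. Among the measured members with a window, 3 held it and 35 did not. Of 8831 measured genes with a window, 11.7% held the motif. The 7 members with the motif were Ampd3, Atic, Dtymk, Impdh2, Nme1, Paics and Tyms. The 3 of them with a ratio from their own probe sets were Atic, Dtymk and Nme1, at 0.51, 0.36 and 0.38. A match is a description of the letters and no binding was measured. The windows of these 3 genes are shown 5′ to 3′ on the gene's strand, with the motif in capitals.
Atic (chr1:71556906-71557205, plus strand): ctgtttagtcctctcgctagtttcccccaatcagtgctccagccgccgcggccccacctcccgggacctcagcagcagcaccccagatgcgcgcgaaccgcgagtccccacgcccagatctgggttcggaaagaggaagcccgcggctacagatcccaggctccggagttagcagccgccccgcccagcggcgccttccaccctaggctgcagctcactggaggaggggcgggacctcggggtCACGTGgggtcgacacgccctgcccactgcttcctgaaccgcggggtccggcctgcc
Dtymk (chr1:93801885-93802184, minus strand): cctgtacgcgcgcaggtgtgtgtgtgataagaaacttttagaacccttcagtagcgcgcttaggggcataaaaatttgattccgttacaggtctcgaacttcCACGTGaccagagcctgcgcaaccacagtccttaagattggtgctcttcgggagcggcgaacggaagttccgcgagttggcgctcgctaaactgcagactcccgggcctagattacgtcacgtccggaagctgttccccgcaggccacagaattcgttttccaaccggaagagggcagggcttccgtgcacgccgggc
Nme1 (chr11:93967976-93968275, minus strand): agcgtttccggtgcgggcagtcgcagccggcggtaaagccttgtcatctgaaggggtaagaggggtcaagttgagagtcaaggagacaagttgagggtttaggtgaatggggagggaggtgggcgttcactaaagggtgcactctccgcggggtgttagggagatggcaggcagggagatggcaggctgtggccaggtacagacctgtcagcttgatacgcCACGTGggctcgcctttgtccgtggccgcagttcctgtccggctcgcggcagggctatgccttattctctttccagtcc
The motif began 7 bases before the start in Atic, 148 bases before it in Dtymk and 29 bases before it in this window of Nme1. A second Nme1 window, of an alternative start, held the motif 18 bases before its start. The 35 measured members without the motif in any window had a median log2 ratio of 0.11. With only 3 measured members holding the motif, a link between motif and ratio was not tested.

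The enzymes that make PRPP, the shared sugar donor of both rings, were both higher in CM cells. Prps2 had signals of 198.9 in CM against 139.2 in E/EM cells on SubA, 1924 against 1441.7 on SubB and 1869.7 against 1125.5 on SubC. All 3 array types gave the higher signal in CM cells, and the mean log2 ratio was 0.55 ± 0.16 (SD, 3 probe sets), or 1.47-fold. At or above this value lay 11.3% of all genes. Its paralogue Prps1 had 2197.8 against 1683.7 on its only single-symbol probe set, on SubA, a log2 ratio of 0.38. At or above that value lay 19.2% of all genes. A second Prps1 probe set, which is also assigned to the related gene Prps1l3, had 129.3 against 101, or 0.36.

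The steps from PRPP to IMP had small ratios of both signs. Ppat, which commits PRPP to the purine route, had signals of 56.2 and 54.5 in CM against 60.6 and 64.8 in E/EM cells on 2 SubA probe sets, a mean log2 ratio of -0.18 ± 0.10 (SD). These signals were only 1.74 times the floor at the lowest, and a SubC probe set lay under it in both. After quantile normalization Ppat had -0.00011. Gart, a trifunctional enzyme of the next steps, had 1370 against 1523.6, a log2 ratio of -0.15. Pfas, which adds the next nitrogen, had 302.4 against 344.2 on SubB and 910.8 against 1280.6 on SubC, a mean of -0.34 ± 0.22 (SD, 2 probe sets). The values of Ppat and Gart are smaller than the median SD over probe sets of 0.32.

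The last steps are catalysed by Adsl and Atic. Adsl, which splits off fumarate both here and on the way to AMP, had 1337.3 in CM against 1101.3 in E/EM cells, a log2 ratio of 0.28. Atic, which closes the ring to IMP, had 4095.4 against 2854.6 and 2056.6 against 1461.2 on 2 SubB probe sets. Both Atic probe sets gave nearly the same ratio, with a mean of 0.51 ± 0.02 (SD), or 1.42-fold. Another Atic probe set lay under the floor in both kinds of cells.

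At the branch from IMP, probe sets of the same gene disagreed. Gmps, which makes GMP from XMP, had 3763.5 in CM against 3307.9 in E/EM cells on SubB and 2764.9 against 1307.4 on SubC. The SubC probe set was more than 2-fold higher in CM cells and the SubB probe set was not, so the mean of 0.63 ± 0.63 (SD) has a wide error. Without SubC the Gmps value was 0.19. Impdh1, an isoform of the rate-limiting enzyme of GMP synthesis, had 1041.9 against 979.7 on SubA and 3868.7 against 5241.8 on SubB. Its ratios, 0.09 and -0.44, differ in sign, and the mean was -0.17 ± 0.37 (SD). The main isoform of dividing lymphocytes, Impdh2, had no named probe set.

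The paralogues that start AMP synthesis also disagreed within themselves. Adss had 1330.5 in CM against 1029.6 in E/EM cells and 3012.4 against 2359.4 on 2 SubA probe sets listed under the same sequence accession, a mean of 0.36 ± 0.01 (SD). A SubC probe set of Adss, at 167.2 in CM cells and so under the floor, and 818.9 in E/EM cells, was at least 4.21-fold lower in CM cells. With the floor halved, which brings this probe set in, Adss had -0.52, so its direction is not settled. Adssl1, the muscle-type paralogue, had 107.5 against 286.9 on SubA and 1834.3 against 1780.2 on SubC. Only the SubA probe set was past 2-fold, and the mean of -0.69 ± 1.03 (SD) is not a measured direction. Without SubC, Adssl1 had -1.42 and was then the only member past 2-fold.

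**Figure D3:**
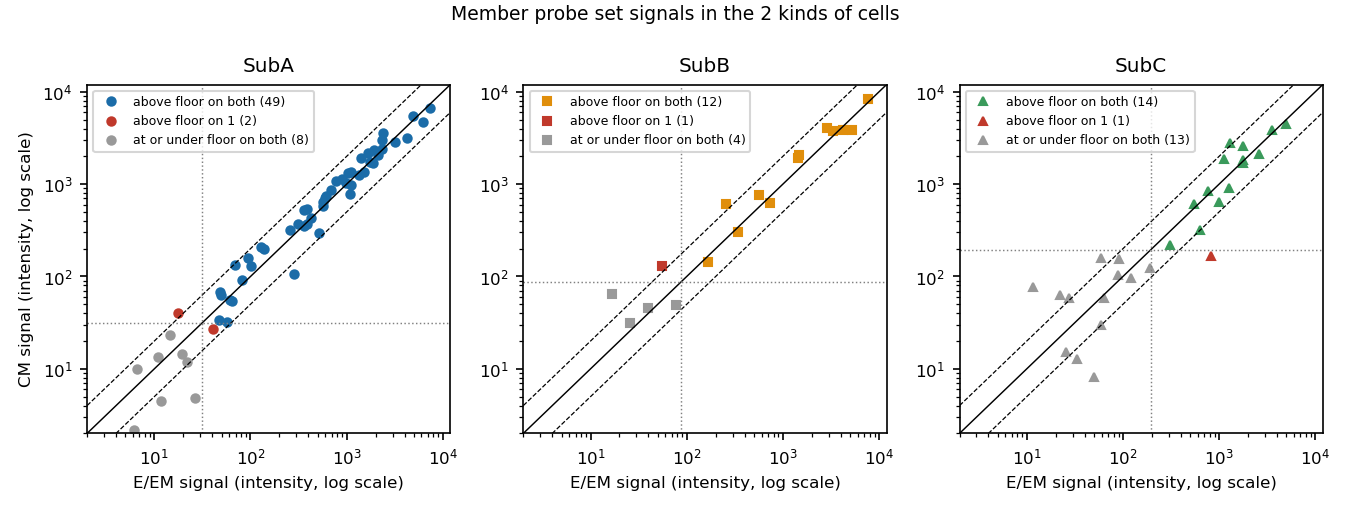
CM signal against E/EM signal (linear intensities on log axes) of the member probe sets on SubA, SubB and SubC, with the line of equality, dashed 2-fold lines and dotted lines at each floor. Of 104 probe sets, 75 exceeded the floor in both populations, 4 in only 1 of them and 25 in neither.

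Purine salvage genes, which recover bases and nucleosides, had small ratios of both signs. Hprt, which returns hypoxanthine and guanine to the nucleotide pool, had signals of 5407.7 in CM and 4869.1 in E/EM cells, a log2 ratio of 0.15. Aprt, the adenine counterpart, had 91.3 and 81.7, or 0.16, while its other 2 probe sets were under the floor. Pnp, the purine nucleoside phosphorylase whose loss depletes T cells, had 1705.8 and 1882.7, or -0.14. Guk1, which phosphorylates GMP, had 738.7 and 603.1, or 0.29.

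Adk, the adenosine kinase, was the lowest gene of the salvage group. Its signals were 31.8 in CM against 57.2 in E/EM cells and 787.7 against 1075.6 on SubA, and 144.2 against 165.5 on SubB. All 3 probe sets were lower in CM cells, with a mean log2 ratio of -0.50 ± 0.33 (SD), although the weakest signal was only 1.02 times the floor. Ada, the adenosine deaminase whose loss causes severe combined immunodeficiency, had 208.3 against 128.1 and 366.7 against 387.1 on SubA. These probe sets point in opposite directions (0.70 and -0.08), so the mean of 0.31 ± 0.55 (SD) is unsettled, and another lay under the floor. The AMP deaminase Ampd2 had 3869.3 against 4182.9 on SubB and 848.3 against 762.9 on SubC, a mean of 0.02 ± 0.19 (SD). Its relative Ampd3 was above the floor only in CM cells, at 39.9 against 17.6, so at least 1.28-fold higher there.

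In pyrimidine synthesis no gene had a settled difference. Cad, the trifunctional enzyme of the first steps and a classic MYC target, had 976.1 in CM against 1103.7 in E/EM cells on SubA and 616.3 against 258.2 on SubB. The SubB ratio of 1.26 and the SubA ratio of -0.18 give a mean of 0.54 ± 1.01 (SD), so Cad cannot be assigned a direction. Its other 2 probe sets lay under the floor in both. Dhodh, the mitochondrial step, had ratios of 0.52 and -0.05 on SubA and -0.32 on SubC, a mean of 0.05 ± 0.43 (SD, 3 probe sets). Umps, which attaches PRPP and makes UMP, had 158.2 against 94.5 and 428.1 against 429.7, a mean of 0.37 ± 0.53 (SD). The ratio thus came from the weaker probe set alone.

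CTP synthesis and uridine salvage had small ratios. Ctps, the CTP synthase needed for lymphocyte proliferation, had 1251 in CM and 1334.4 in E/EM cells, a log2 ratio of -0.09. Its paralogue Ctps2 had 1150.6 and 898.4, or 0.36, with its SubB and SubC probe sets under the floor in both. With the floor halved it turned to -0.15. The uridine-cytidine kinase Uck2 had 2827 against 3154.1 on SubA and 8421.6 against 7689.7 on SubB, a mean of -0.01 ± 0.20 (SD). Uck1 had 633.9 against 563.6, or 0.17, and the UMP/CMP kinase Cmpk1 had 2339.7 against 1940.9, or 0.27.

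The genes that turn ribonucleotides into deoxynucleotides during S phase had ratios near 0. Rrm1, the large subunit of ribonucleotide reductase, had 2422.3 in CM against 2328.8 in E/EM cells on SubA and 612.3 against 547.3 on SubC, a mean of 0.11 ± 0.07 (SD). Rrm2, the subunit whose level limits the enzyme in S phase, had 2086 and 2130.9, a log2 ratio of -0.03. Thymidylate synthase, Tyms, was measured by 2 SubA probe sets that are also assigned to its pseudogene Tyms-ps, so its own signal cannot be separated. These had 870.5 against 693.4 and 585 against 566.4, ratios of 0.33 and 0.05, and its own SubC probe set lay under the floor in both. Dut, which removes dUTP, had 1710.5 and 1770.4 on SubC, or -0.05, and its SubA probe set was above the floor in E/EM cells only, at least 1.29-fold lower in CM cells. The dCMP deaminase Dctd had 3841.4 and 3559.6, or 0.11.

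The kinases of deoxynucleoside salvage, which phosphorylate recovered deoxynucleosides, had means above 0 except Tk1. Dck, the cytosolic deoxycytidine kinase, had 3581.3 in CM against 2383.4 in E/EM cells and 133.1 against 69 on 2 SubA probe sets listed under the same sequence accession. Both carry a suffix letter in their names, f or r. Such suffixes in some cases mark possible matches to other transcripts. Its mean of 0.77 ± 0.25 (SD), or 1.70-fold, was the highest of all members, and 5.83% of all genes lay at or above it. Dguok, the mitochondrial deoxyguanosine kinase, had 1908.3 against 1420.4 and 1080.2 against 773.6, a mean of 0.45 ± 0.04 (SD). Tk2, the mitochondrial thymidine kinase, had 315.5 against 255.7 on SubA and 2575.9 against 1787.2 on SubC, a mean of 0.42 ± 0.16 (SD). A SubB probe set of Tk2 was above the floor in CM cells only, at least 1.46-fold higher there.

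Tk1 is the cytosolic thymidine kinase of S phase. Its SubA probe sets had 62.3 in CM against 48.8 in E/EM cells and 1759 against 1768.4, and its SubC probe sets 646.8 against 1004.2 and 4473.5 against 4912.8. Over 4 probe sets the ratios ran from -0.63 to 0.35, with a mean of -0.11 ± 0.41 (SD), and without SubC the mean was 0.17. The mean of Tk1 minus that of Tk2 was -0.52, but without SubC Tk2 had 0.30, close to the 0.17 of Tk1. Dtymk, which phosphorylates dTMP from either source, had 533.5 against 388 and 708.7 against 590.5, a mean of 0.36 ± 0.14 (SD, 2 probe sets). Its 2 SubC probe sets lay under the floor in both kinds of cells, and with the floor halved Dtymk had 0.03.

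The nucleoside diphosphate kinases, which balance the triphosphate pools, had ratios of opposite sign. Nme1 had 369.6 in CM against 313.2 in E/EM cells and 68.6 against 48 on SubA, a mean of 0.38 ± 0.20 (SD). Both Nme1 probe sets carry a suffix f or r, as those of Dck do, and the weakest signal was 1.53 times the floor. Nme2 had 6739.3 and 7409.2, or -0.14. These neighbouring genes are close in sequence, so signal shared between their probe sets cannot be told apart.

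The 3 measured genes of the folate and methionine cycle had means at or below 0. Mthfd1, the trifunctional folate enzyme that supplies formyl groups to purines, had signals of 624 in CM against 742 in E/EM cells on SubB and 217.9 against 307.7 and 316.4 against 630.3 on SubC. All 3 were lower in CM cells, with a mean of -0.58 ± 0.38 (SD), although the SubC signals reached down to 1.12 times the floor. Without SubC it had -0.25. Ahcy, which clears S-adenosylhomocysteine after methylation reactions, had 3186.4 against 4203.7, 4763.6 against 6181.3 and 294.7 against 514.3 on SubA, the first 2 listed under the same sequence accession. All were lower in CM cells, with a mean of -0.53 ± 0.24 (SD, 3 probe sets), or 1.44-fold lower, and 15.9% of all genes lay at or below it. Mtr, methionine synthase, had 34.2 against 47.1 on SubA and 766.9 against 563.5 on SubB, so its mean of -0.01 ± 0.64 (SD) has no direction.

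Agreement between probe sets gives the only internal check of these small ratios, and a limited one. For Atic, Adss, Dck, Dguok, Dtymk, Nme1, Ppat and Ahcy, all measured probe sets were on 1 array type. Their agreement is therefore no check between arrays. Adss, Dck and Ahcy also include pairs listed under the same sequence accession. Of the 25 members with at least 2 measured probe sets, 10 had all of them above 0, against 28.5% of 4094 such genes. These were Prps2, Atic, Gmps, Adss, Rrm1, Dck, Dguok, Tk2, Dtymk and Nme1. Bounds were not counted, and for Adss the SubC probe set, at least 4.21-fold lower in CM cells, goes the other way. All probe sets lay below 0 for 5 members, Ppat, Pfas, Adk, Mthfd1 and Ahcy, against 22.9% of genes. The other 10 had probe sets on both sides of 0. Over all 25 members with at least 2 measured probe sets, the median SD over probe sets was 0.24, against 0.32 for all such genes. Of the 6 members with at least 3 measured probe sets, 1 had all above 0 and 3 all below, against 22.1% and 13.4% of genes.

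The further genes of the same pathways, a separate list of 74, showed a wider spread than the members. Of 41 measured, 2 were past 2-fold lower and 1 past 2-fold higher in CM cells, against the same 5.61% and 2.73%. Of these 41, 21 lay above 0, and the median was 0.02, against 0.13 for the members and -0.0025 for all genes. Medians were 0.02 for 15 folate and one-carbon genes, 0.16 for 12 purine genes, -0.13 for 6 pyrimidine genes and 0.04 for 6 deoxynucleotide and kinase genes. Aldh1l1, which oxidises formyl-tetrahydrofolate and so drains single carbons, had 110.8 in CM against 351.9 in E/EM cells and 91.8 against 215.3 on SubB. Its mean of -1.45 ± 0.31 (SD) rests on CM signals down to 1.04 times the floor. Ak4, a mitochondrial adenylate kinase, had 143.8 against 274.2 and 251.2 against 607 on SubA, a mean of -1.10 ± 0.24 (SD), while a SubC probe set was above the floor in CM cells only and gave at least 1.09-fold higher. With the floor halved, Ak4 had -0.54. Ggh, which trims folate polyglutamates, had 187.5 against 91.6, a ratio of 1.03.

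Mthfd2, the mitochondrial folate enzyme induced on T cell activation, had 2615.5 in CM and 3872.3 in E/EM cells, a log2 ratio of -0.57. Shmt2, which feeds serine carbon into mitochondrial folate, had 230.7 against 241.6 on SubA and 196.1 against 434.9 on SubB, a mean of -0.61 ± 0.77 (SD), and the SubA probe set alone gave -0.07. Mthfd1l, Mthfd2l and Slc25a32 were named after their values were seen. Mthfd1l had -0.12, Mthfd2l -0.40 ± 0.83 (SD, 2 probe sets), and the carrier Slc25a32 0.78, from 170.7 against 99.2 at 1.13 times the floor. The cytosolic Shmt1 had -0.04 ± 0.60 (SD, 3 probe sets), with ratios from -0.50 to 0.64. The nucleoside transporter Slc29a1 had 36.5 against 65.1 and 1230.7 against 1200, a mean of -0.40 ± 0.62 (SD, 2 probe sets). Its bright probe set alone gave 0.04, so the sign rests on the weak probe set. Of the 8 further genes with a bound only, Slc28a1, a nucleoside transporter, was at least 3.97-fold lower in CM cells, Ak1 at least 3.39-fold and Bhmt at least 2.57-fold. Single probe sets of Upp1 and Nme6 gave at least 3.76-fold and 2.32-fold lower, but other probe sets of these genes had -0.29 and -0.37.

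**Figure D4:**
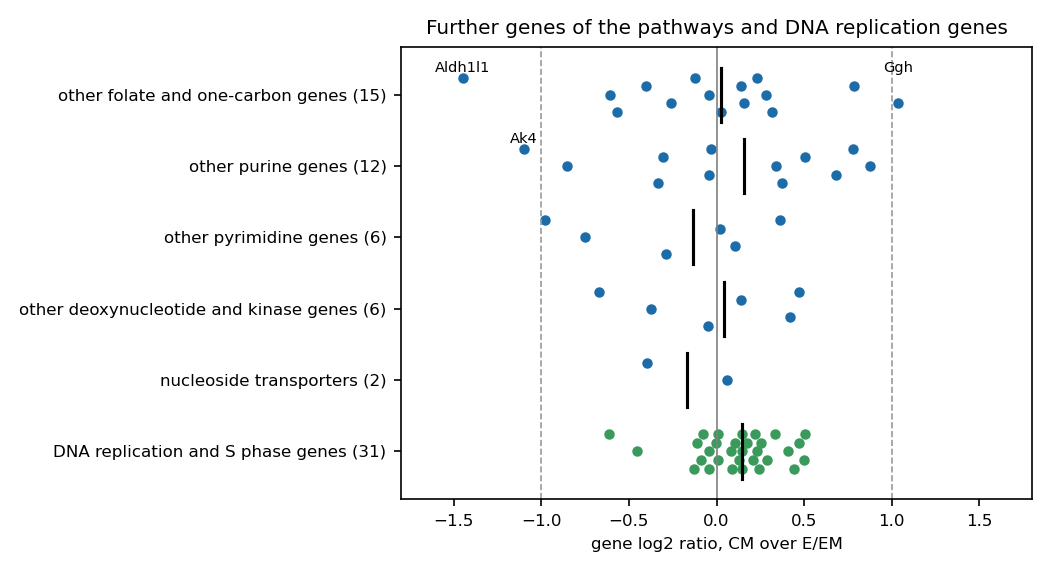
Gene log2 ratios (CM over E/EM) for 41 further genes of the pathways, by group, and for 31 DNA replication genes, with the number measured in parentheses, a black bar at each median and dashed lines at 2-fold; the vertical scatter within a row has no meaning. Only Aldh1l1, Ak4 and Ggh pass 2-fold.

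DNA replication and S phase genes, which share much of their regulation with Rrm1, Rrm2, Tk1 and Tyms, were measured beside them. Of 31 measured, 0 passed 2-fold in either direction, against 5.61% of all genes lower and 2.73% higher. Above 0 lay 22, against 49.7% of all genes, and the median was 0.14, beside the members' 0.13. The highest were Pold1 at 0.50 ± 0.41 (SD, 2 probe sets), Chaf1b at 0.50 and Pola2 at 0.47. The lowest were Cdc45 at -0.62 ± 0.11 (SD, 2 probe sets), Mcm5 at -0.45 ± 0.95 (SD, 2 probe sets) and Rfc3 at -0.13. Mcm5 had 3909.1 against 3360.9 on SubA, a ratio of 0.22, and 1757.6 against 3826.5 on SubC, so its direction is not settled.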

How the data were processed

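Total RNA of 2 kinds of cells was hybridised to 3 array types, 1 array each, and samples were grouped by their titles. The values were deposited as linear intensities, 1 for each probe set. For the software and scaling used by the authors, nothing was given in the sources used here. Their mean without the lowest and highest 2% lay between 500.1 and 500.3 on all 6 arrays and differed by at most 0.00858% within a table, so they were used as deposited. The floor was the higher of 2 arrays' 90th percentiles over 15 bacterial control probe sets.

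Symbols were read from the platform annotation held by GEO, and those of all 101 single-symbol member probe sets matched RefSeq (GRCm38.p6) by identifier. Gene values are means of log2 ratios over single-symbol probe sets above the floor on both arrays. Probe sets with several symbols are given by themselves. With no replicates there is no test. Genes were counted by 2-fold and 1.5-fold rules beside all genes.

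All members are named, with full signals for those past 1.5-fold, bounds and paralogue pairs. Further genes are named where past 2-fold or bounded past it, plus Shmt1, Shmt2, Mthfd2 and Slc29a1, with others marked as chosen after their values were seen, and of the replication genes the 3 highest and 3 lowest. Members and lists were chosen with earlier results of these data known. Calculations used Python 3.11.15 with pandas 2.3.3 and were tested on simulated data. The number of arrays limits the precision.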

Additional observations from a re-analysis of the deposited data

How the results depend on the processing

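Each value was recomputed under 10 other settings of the processing and with the limit of 5 times the floor, which was chosen after seeing the data. No paired analysis was possible because each table holds 1 array per kind of cell. Of 40 measured members, 28 kept their sign under every alternative that gave a value, 17 above 0 and 11 below, and 12 changed sign in at least 1. Ppat, among the 28, was at -0.00011 after quantile normalization. The members' median ran from 0.05 to 0.17, that of the further genes from -0.0048 to 0.16 and that of the DNA replication genes from 0.10 to 0.16. All-gene medians moved by at most 0.05.

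The count of members at least 2-fold lower became 1 without suffix-marked probe sets, with SubA alone and with SubA and SubB. That member was Adssl1 on its SubA probe set, at -1.42. The suffix letters left out were f, g, i, r, s and x, which removes both Dck and both Nme1 probe sets. The count higher became 1 with the floor halved, which brings in Ampd3 at 1.18. The 1.5-fold rule gave 1 lower and 2 higher members, and the 3-fold rule 0. The 2 further genes lower became 3 with each table centred, with the brightest probe set, without the suffix-marked probe sets and with several-symbol probe sets. They became 4 with the floor halved, 1 with it doubled or at the 60th percentile, 1 on SubA alone, 1 at 5 times the floor and 7 by the 1.5-fold rule. The 1 higher became 3 after quantile normalization, 2 on SubA alone, 0 with the floor at the 60th percentile or 5 times the floor, and 5 by the 1.5-fold rule. Fewer probe sets enter under the higher floors and on SubA alone; for the others the cause was not tested. SubC has the highest floor and measured 14 of its 28 member probe sets.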

Other observations

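Enzymes that break nucleotides down, and the kinase Nme4, were chosen for mention after their values were seen. Nt5c, a cytosolic nucleotidase, had signals of 4881.9 in CM and 3047.3 in E/EM cells, a log2 ratio of 0.68. Of other nucleotidases, Nt5m had 0.34 and Nt5c3 0.10 ± 0.27 (SD, 2 probe sets). Nt5c2 was lower in CM cells on all 3 measured probe sets, with a mean of -0.34 ± 0.23 (SD). Nt5e, the surface enzyme CD73 that makes adenosine, had 335.5 against 142.7 on SubA and 598.4 against 479.9 on SubB, a mean of 0.78 ± 0.65 (SD, 2 probe sets), so both probe sets were higher in CM cells but by different amounts. Xdh, which oxidises hypoxanthine to urate, had 395.3 and 714.7, a log2 ratio of -0.85. The mitochondrial nucleoside diphosphate kinase Nme4 had 128.1 and 203.7, or -0.67. The values of Nt5c, Nt5m, Xdh and Nme4 each rest on 1 probe set.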
